A study of Mus musculus with 20 samples.

Results

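Mitochondria make a small set of respiratory chain proteins on their own ribosome and import nearly all other proteins from the cytosol. The gene set described here covers both machineries in the mouse heart. It holds every gene with a single platform symbol that starts with Mrpl or Mrps and a digit (proteins of the large and small subunits of the mitochondrial ribosome), or with Timm or Tomm (the translocases of the inner and outer mitochondrial membranes). The rule found 78 genes among the 8251 genes named on the array, made up of 40 Mrpl, 21 Mrps, 12 Timm and 5 Tomm genes. Each gene was represented by its probe set with the highest mean over all arrays. The naming rule itself uses no measured difference, but the set was chosen with earlier results of these data known. A filter on dim probe sets kept 75 of the 78 and left out Mrpl14, Mrpl49 and Timm8a2.

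Hearts of 20 male mice were profiled on 1 oligonucleotide array each, in 4 groups of 5 animals. Young controls were 5 months old and old controls 30 months old, both on a control diet. Another group of 30-month-old mice had eaten a diet with 1000 mg/kg alpha-tocopherol from the age of 15 months, and the last group a diet with 500 mg/kg alpha-tocopherol and 500 mg/kg gamma-tocopherol from the same age, so that adding gamma-tocopherol and lowering alpha-tocopherol cannot be told apart. Alpha- and gamma-tocopherol are forms of vitamin E. All animals carried the label B6/C3H F1 hybrid except old controls 1 and 4, whose label reads hybrid without F1, and all were housed singly. Levels are log2(intensity + 58), and a difference is a difference of group means on that scale ± its standard error (SE), which understates changes of dim probe sets. A gene is said to have risen or fallen where the limma adjusted p (two-sided, Benjamini-Hochberg over 7453 tested probe sets) was below 0.05. The 5 arrays a group limit the precision, and the median SE of a difference between old and young controls was 0.179 over all tested probe sets.

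The arrays were those of heart muscle by their markers. Cardiomyocyte markers were measured for 6 of 7 listed genes, and their summed intensity was 437000 to 558000 in young and 449000 to 560000 in old controls. Markers of liver and T cells stood high on single arrays, with a T cell sum of up to 15800 in young control 3 against at most 1810 in the supplemented groups, and Cd3e, Cd3g, Cd8a and Apoa1 were below the filter. In whole tissue, fewer cells of a type and less RNA per cell cannot be told apart.

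The mitochondrial ribosome carries RNA copied from the mitochondrial genome, while all of its proteins are encoded in the nucleus, made in the cytosol and imported. Import begins at the outer membrane, where Tomm20 and Tomm70a act as receptors and Tomm40 forms the pore. Small Timm proteins such as Timm8, Timm9, Timm10 and Timm13 carry hydrophobic proteins across the intermembrane space, Timm22 forms the channel that inserts carrier proteins into the inner membrane, and Timm23 and Timm17 form the channel for proteins with a presequence, which Timm44 links to the matrix import motor. The heart is rich in mitochondria, and inherited defects of several of these genes, among them MRPL44 and MRPS22 in humans, are known to cause cardiomyopathy.

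Transcription factors of the NRF1, ETS (GABP) and YY1 families are known to act at promoters of nuclear genes for mitochondrial proteins. The promoters of the whole set, whether or not the gene moved, were searched for their motifs. Windows of 250 bases before to 50 bases after the annotated start (RefSeq, build GRCm38.p6) matched 70 of the 78 genes. The letters searched on both strands were GCGCANGCGC for NRF1, CCGGAAG for the ETS core and AAGATGG for the YY1 core. The ETS core ends in the letters AAG with which the YY1 core begins, so matches of these motifs can overlap. The following stretches, which all lie before the start, come from 7 genes that moved with age or with a supplement, and the motif is in capitals.
Mrpl12: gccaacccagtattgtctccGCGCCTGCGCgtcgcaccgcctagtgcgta
Mrpl39: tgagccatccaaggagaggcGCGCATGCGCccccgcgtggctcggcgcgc
Mrpl45: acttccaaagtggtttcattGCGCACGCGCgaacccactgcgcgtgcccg
Mrpl9: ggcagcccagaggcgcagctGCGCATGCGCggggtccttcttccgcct
Mrpl34: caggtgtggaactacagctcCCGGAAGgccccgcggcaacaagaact
Mrps22: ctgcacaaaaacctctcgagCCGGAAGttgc
Timm23: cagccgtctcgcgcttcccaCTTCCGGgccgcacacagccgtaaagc

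The sequences run 5′ to 3′ in the direction of each gene. The NRF1 stretches are those of Mrpl12 (chr11:120484536-120484585, plus strand), Mrpl39 (chr16:84735340-84735389, minus strand), Mrpl45 (chr11:97315658-97315707, plus strand) and Mrpl9 (chr3:94443288-94443335, plus strand). The ETS stretches are those of Mrpl34 (chr8:71464869-71464915, plus strand), Mrps22 (chr9:98601680-98601710, minus strand) and Timm23 (chr14:32201912-32201958, minus strand). In Mrpl12 and Timm23 the motif reads on the strand opposite to the gene. In Mrpl39 and Mrpl9 the NRF1 letters match on both strands.

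The NRF1 letters were found in 11 of 70 matched genes (15.7%), against 9.2% of the promoters of genes on the array and 4.78% of all promoters in the table. The ETS core was found in 25 of 70 (35.7%), against 15.7% and 9.12%, and the YY1 core in 13 of 70 (18.6%), against 6.89% and 6.48%. At least 1 of the 3 motifs was present in 41 genes (58.6%), against 27.9% of genes on the array. Of the 10 genes that rose with age, 4 held the NRF1 letters, 3 the ETS core and 0 the YY1 core. Of 22 matched genes that fell with a supplement, 5 held the NRF1 letters, 9 the ETS core and 4 the YY1 core. In the whole set these were 11, 25 and 13 of 70. Whether the genes that moved held more motifs than the others was not tested. A match is a description of the letters and not a measured binding site.

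Old control hearts had higher levels of mitochondrial ribosome and import transcripts than young control hearts. Of the 75 tested genes, 10 rose (13.3%) and 0 fell by their brightest probe sets. Of all tested genes 3.00% rose and 2.37% fell. Differences were above 0 for 65 genes and below 0 for 10, the median was 0.25 (a 1.19-fold level) with quartiles of 0.11 and 0.40, and the median of all tested genes was 0.02. At an unadjusted p below 0.05 the counts were 33 higher (44%, against 11.2% of all tested genes) and 0 lower (against 7.54%). The genes that rose were Mrpl9, Mrpl12, Mrpl21, Mrpl34, Mrpl39, Mrpl45 and Mrpl46 of the large subunit, Mrps22 of the small subunit, and Timm8a1 and Timm22 of the inner membrane system.

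**Figure D1:**
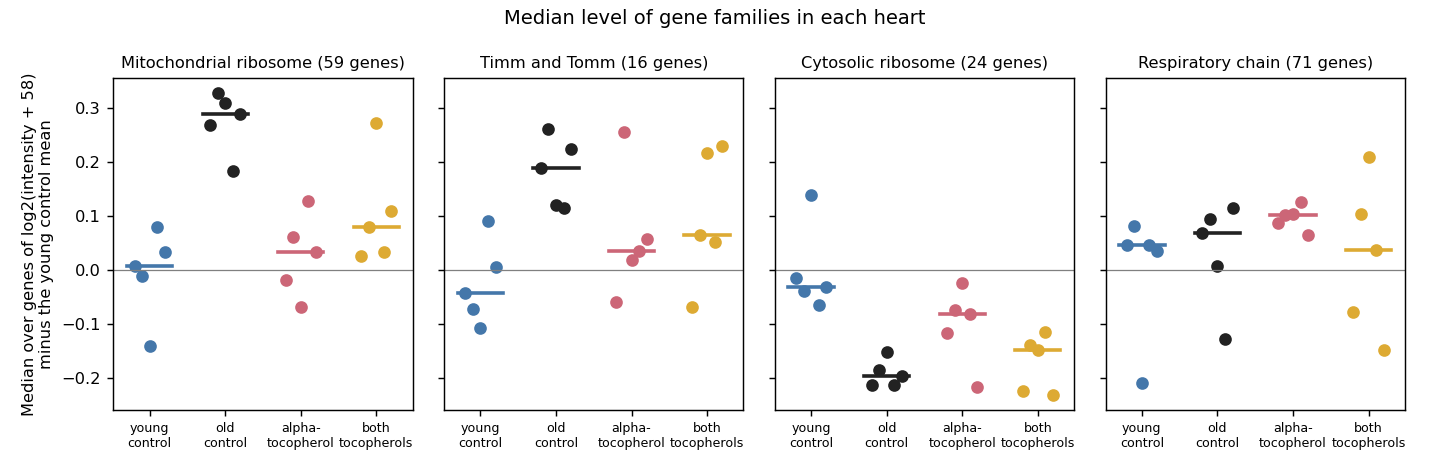
Median over genes of log2(intensity + 58) minus the young control mean (vertical axis, log2 units) for each heart (points) in the 4 groups, with a bar at the group median, for the mitochondrial ribosome genes, the Timm and Tomm genes, and, for comparison, cytosolic ribosome and respiratory chain genes. For mitochondrial ribosome genes the old controls sit between 0.182 and 0.326 and the young controls between -0.141 and 0.079.

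The shift was present in each old control heart. The median deviation of the 75 genes from their young control means was 0.251, 0.313, 0.277, 0.159 and 0.252 in the old controls, and between -0.118 and 0.081 in the young controls, with no overlap. By family the median difference was 0.28 for Mrpl, 0.24 for Mrps, 0.17 for Timm and 0.15 for Tomm. The genes called higher were 7 of 38 Mrpl (18.4%), 1 of 21 Mrps (4.76%), 2 of 11 Timm (18.2%) and 0 of 5 Tomm. Of all tested genes 3.00% rose, so the share of Mrps calls was near that of all genes. For Tomm genes the old controls, at -0.012 to 0.208, overlapped the young controls, at -0.205 to 0.081.

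In the large subunit, Mrpl45 sits near the exit of the ribosome's tunnel and is known to anchor the ribosome to the inner membrane. Its level was 11.79, 11.84, 11.43, 11.40 and 11.46 in young controls and 12.20, 12.34, 12.24, 12.26 and 12.25 in old controls. The old controls lay close together and above all young controls, with a difference of 0.68 ± 0.12 (limma adjusted p = 0.002). Mrpl12 is the stalk protein that recruits translation factors and also binds the mitochondrial RNA polymerase. It read 12.16, 12.11, 11.84, 12.05 and 11.91 in young controls and 12.61, 12.64, 12.67, 12.44 and 12.67 in old controls. The groups did not overlap, and the difference was 0.59 ± 0.14 (limma adjusted p = 0.016). Mrpl39, a protein specific to mitochondrial ribosomes, read 11.07, 11.49, 11.19, 11.76 and 11.58 in young and 11.76, 11.95, 12.35, 12.19 and 12.22 in old controls. The highest young control and the lowest old control met at 11.76 to 2 decimals, and the difference was 0.68 ± 0.14 (limma adjusted p = 0.0047).

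Mrpl34, a small protein of the large subunit shared with bacteria, stood at 12.20, 12.79, 12.37, 12.26 and 12.19 in young and at 12.97, 13.20, 13.58, 12.74 and 12.87 in old controls. Young control 2 lay above the lowest old control, so the groups overlapped, and the difference was 0.71 ± 0.13 (limma adjusted p = 0.0023). Mrpl46, another mitochondria-specific protein, read 9.28, 9.71, 9.12, 9.72 and 9.21 in young and 10.26, 10.12, 10.30, 10.03 and 10.63 in old controls. All old controls lay above all young controls, by 0.86 ± 0.18 in the mean (limma adjusted p = 0.0054). Mrpl21 read 11.41, 11.37, 11.44, 11.73 and 11.54 in young and 12.12, 12.32, 12.09, 11.91 and 12.39 in old controls. These groups were again separate, with a difference of 0.67 ± 0.15 (limma adjusted p = 0.009), and Mrpl9 also rose, by 0.49 ± 0.12 (limma adjusted p = 0.017).

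In the small subunit, Mrps22 had the largest age difference of the 75 genes. Its level was 8.87, 8.95, 8.94, 8.55 and 8.98 in young controls and 10.16, 9.91, 10.16, 10.18 and 9.86 in old controls. Every old control was above every young control, and the difference was 1.19 ± 0.20, a 2.29-fold level (limma adjusted p = 0.00083). Among the other Mrps genes, Mrps7, a head protein of the small subunit, differed by 0.42 ± 0.12 and fell just short of the threshold (limma adjusted p = 0.051). The lowest age difference of the 75 genes was that of Mrps16, -0.55 ± 0.33 (limma adjusted p = 0.41).

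Among the import genes, Timm22, the channel of the carrier translocase, read 9.89, 9.70, 10.06, 9.12 and 9.61 in young and 10.56, 10.98, 10.44, 11.01 and 10.99 in old controls. The groups were separate, and the difference was 1.12 ± 0.20, a 2.17-fold level (limma adjusted p = 0.0018). The small chaperone Timm8a1 rose by 0.62 ± 0.18 (limma adjusted p = 0.043), and young control 4, at 10.09, lay within the old control range of 10.04 to 10.37. Timm9, which forms a chaperone complex with Timm10, differed by 0.73 ± 0.22 (limma adjusted p = 0.053). The other small chaperones were nearer to 0, with 0.27 ± 0.11 for Timm8b, 0.17 ± 0.14 for Timm10, 0.11 ± 0.11 for Timm10b and 0.03 ± 0.09 for Timm13, and none of them passed the test.

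The presequence channel genes did not pass the test with age. Timm23 differed by 0.29 ± 0.10 (limma adjusted p = 0.09), Timm17a by 0.03 ± 0.12, Timm17b by -0.21 ± 0.13 and the motor tether Timm44 by 0.08 ± 0.15. In the outer membrane, the receptor Tomm70a differed by 0.35 ± 0.17, the pore Tomm40 by 0.25 ± 0.13, the small pore subunit Tomm7 by 0.15 ± 0.15, the receptor Tomm20 by -0.09 ± 0.21 and the cytosolic co-chaperone Tomm34 by -0.18 ± 0.31. All 5 Tomm genes had adjusted p of 0.27 or more by limma.

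Of the 10 age calls, 8 held when each of the 20 arrays was left out in turn. Mrpl9 lost its call without old control 4 or young control 2 (highest limma adjusted p = 0.055), and Timm8a1 lost it without any of 11 arrays (highest limma adjusted p = 0.11). Without old controls 1 and 4, 7 of the 10 genes were called and 0 others, and the median was 0.28. With arrays weighted by their quality, 23 genes rose, the 10 included, and 0 fell.

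**Figure D2:**
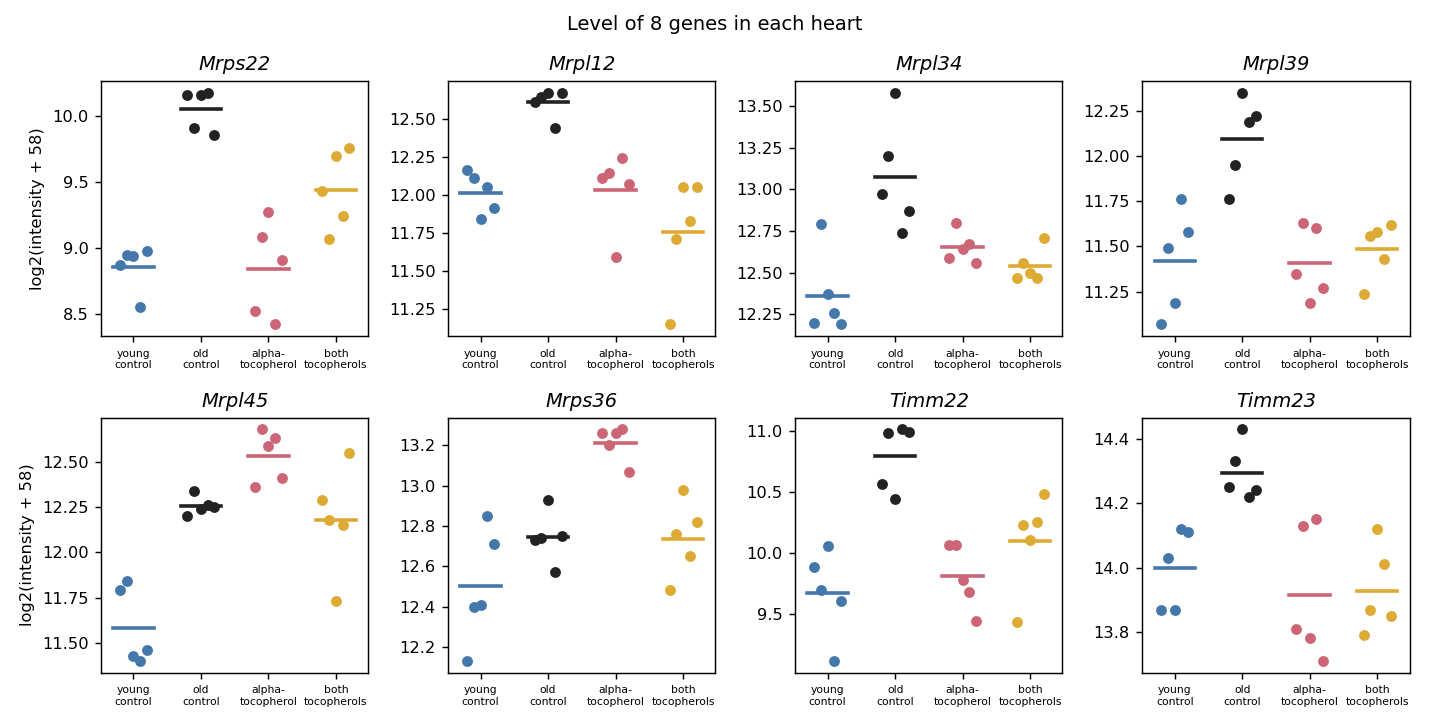
Level of 8 genes as log2(intensity + 58) (vertical axis, scaled for each gene) in every heart (points) of the 4 groups, with a bar at the group mean. Mrps22, Mrpl12, Mrpl39 and Timm22 were higher in old controls than in the other groups' means, Mrpl45 stayed between 12.18 and 12.53 in the means of all 30-month-old groups, and Mrps36 was highest with alpha-tocopherol at a mean of 13.21.

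Genes of related families moved otherwise with age. Of 24 tested cytosolic ribosome genes (Rpl and Rps), 0 rose and 5 fell (20.8%, against 2.37% of all tested genes), with a median of -0.22. Of 71 tested respiratory chain genes 2 rose and 2 fell (2.82% each, against 3.00% and 2.37%), with a median of 0.04. The median deviation of the cytosolic ribosome genes was -0.213 to -0.151 in the old control hearts, against -0.064 to 0.139 in the young controls. These medians are set beside those of the mitochondrial set as descriptions and were not tested against them.

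By their sums, endothelial markers were highest in the old controls. Their summed intensity over 6 of 6 genes was 9010 to 13600 in young controls and 14100 to 15700 in old controls. It was 8960 to 13400 with alpha-tocopherol and 11000 to 12100 with both tocopherols. With age 2 of 6 rose, against 3.00% of all tested genes. The median age difference of these markers was 0.36. They ranged from -0.07 for Tie1 to 0.95 for Cldn5, a tight junction protein of endothelium. Fibroblast (6 genes, median 0.28) and myeloid markers (6 genes, median 0.11) had 0 called with age. Adipocyte markers summed to 7690 to 10800 in young and 5150 to 6250 in old controls over 3 of 5 genes (median -0.61), with 0 called. Adipoq, a hormone of fat cells, differed by -1.61, Lep by -0.61 and Fabp4 by 0.16. The part of these markers in the differences of the mitochondrial genes was not tested.

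In hearts of mice given alpha-tocopherol, many mitochondrial ribosome transcripts were lower than in old controls, with 19 of 59 called lower (32.2%). Of all 75 genes, 21 fell (28.0%) and 2 rose (2.67%), where 13.7% of all tested genes fell and 8.71% rose. At an unadjusted p below 0.05 by limma, 25 were lower (33.3%, against 21% of all tested genes) and 4 higher (5.33%, against 15.1%). Differences were below 0 for 62 genes and above 0 for 13, the median was -0.21 with quartiles of -0.42 and -0.07, and the median of all tested genes was -0.04. The age and supplement comparisons share the old controls, so that a high value in these controls enters all of them with opposite sign, and their values are given side by side without a test of likeness.

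The 12 large-subunit genes that fell were Mrpl2, Mrpl9, Mrpl12, Mrpl16, Mrpl18, Mrpl20, Mrpl27, Mrpl28, Mrpl34, Mrpl36, Mrpl39 and Mrpl44. In the small subunit 7 fell, namely Mrps7, Mrps12, Mrps22, Mrps26, Mrps28, Mrps33 and Mrps34. Of the 16 tested Timm and Tomm genes 2 fell (12.5%), Timm22 and Timm23, a share below the 13.7% of all tested genes, and 0 of 5 Tomm genes passed the test. The genes that rose were Mrpl23 and Mrps36.

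Mrpl18, a protein of the central protuberance of the large subunit, had the smallest adjusted p of the 75 genes. It stood at 14.17, 14.28, 14.21, 14.35 and 14.15 in old controls and at 13.20, 13.52, 13.35, 13.53 and 13.53 with alpha-tocopherol. All treated hearts lay below all old controls, and also below the young controls at 13.93, 13.90, 13.73, 14.00 and 14.02. The difference from old controls was -0.81 ± 0.10 (limma adjusted p = 1.2e-05), and a further probe set of the gene fell by 1.05 ± 0.17 on the log2 scale (limma adjusted p = 0.00022).

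Mrps22 read 8.52, 9.08, 9.27, 8.42 and 8.91 with alpha-tocopherol, below all old controls and around the young control values. Its difference of -1.21 ± 0.20 was the lowest of the 75 (limma adjusted p = 0.00023). Mrpl39 read 11.35, 11.63, 11.19, 11.60 and 11.27 with alpha-tocopherol, again below all old controls, with a difference of -0.69 ± 0.14 (limma adjusted p = 0.0013). Timm22 read 10.07, 10.07, 9.78, 9.68 and 9.45, and its difference was -0.98 ± 0.20 (limma adjusted p = 0.0015). In these 3 genes the treated hearts overlapped the young controls.

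Mrps34, a small-subunit protein specific to mitochondria, read 13.20, 13.24, 13.53, 12.83 and 13.04 in old controls and 12.63, 12.56, 12.36, 12.54 and 12.67 with alpha-tocopherol. The groups did not overlap, and the difference was -0.62 ± 0.12 (limma adjusted p = 0.0011). Mrps28 read 11.46, 11.39, 11.63, 11.44 and 11.47 in old controls and 10.97, 10.99, 10.95, 11.14 and 10.62 with alpha-tocopherol. The difference was -0.55 ± 0.11 with no overlap (limma adjusted p = 0.0016), while with age this gene differed by 0.12.

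Mrpl27, which lies near the site of peptide bond formation in bacterial ribosomes, read 11.98, 11.96, 11.84, 12.10 and 12.27 in old controls and 11.31, 11.44, 11.39, 11.77 and 11.07 with alpha-tocopherol. The difference was -0.63 ± 0.14 without overlap (limma adjusted p = 0.0026). Mrpl20, known in bacteria as an assembly protein of the large subunit, read 10.95, 11.05, 10.50, 11.14 and 10.93 in old controls and 10.37, 10.30, 9.96, 10.28 and 10.62 with alpha-tocopherol. Old control 3 lay within the treated range, and the difference was -0.61 ± 0.13 (limma adjusted p = 0.0027). Mrpl12, with treated hearts at 12.11, 12.14, 11.59, 12.24 and 12.07, differed by -0.58 ± 0.14 and did not overlap the old controls (limma adjusted p = 0.0065).

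The remaining falls with alpha-tocopherol in the large subunit were -0.57 for Mrpl2, -0.56 for Mrpl36, -0.49 for Mrpl44, -0.43 for Mrpl9, -0.42 for Mrpl34, -0.35 for Mrpl16 and -0.33 for Mrpl28. Those in the small subunit were -0.50 for Mrps12, which lies at the decoding site, and -0.42 for each of Mrps7, Mrps26 and Mrps33. Timm23, the presequence channel, read 14.25, 14.33, 14.43, 14.22 and 14.24 in old controls and 13.81, 14.13, 13.78, 14.15 and 13.71 with alpha-tocopherol, and fell by 0.38 ± 0.10 on the log2 scale (limma adjusted p = 0.0085). The groups did not overlap.

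Both genes that rose went against the set. Mrps36, which bears a ribosomal name but is now known as a component of the 2-oxoglutarate dehydrogenase complex, read 12.73, 12.74, 12.93, 12.57 and 12.75 in old controls and 13.26, 13.20, 13.26, 13.28 and 13.07 with alpha-tocopherol. All treated hearts lay above all others, and the difference was 0.47 ± 0.12, the highest of the 75 (limma adjusted p = 0.007). Mrpl23, a protein at the tunnel exit, read 12.76, 12.86, 12.58, 12.55 and 12.80 in old controls and 13.10, 13.14, 13.32, 13.17 and 13.09 with alpha-tocopherol. Its difference was 0.45 ± 0.10 without overlap (limma adjusted p = 0.0029). Mrpl45, which had risen with age, did not fall: its treated hearts read 12.36, 12.68, 12.59, 12.63 and 12.41, and the difference from old controls was 0.27 ± 0.12 (limma adjusted p = 0.12).

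The other import genes did not pass the test with alpha-tocopherol. Among the small chaperones the differences were -0.35 ± 0.18 for Timm8a1, -0.02 ± 0.11 for Timm8b, -0.20 ± 0.22 for Timm9, 0.26 ± 0.14 for Timm10, -0.10 ± 0.11 for Timm10b and -0.13 ± 0.09 for Timm13. They were -0.23 ± 0.12 for Timm17a, 0.17 ± 0.13 for Timm17b and 0.04 ± 0.15 for Timm44. In the outer membrane they were -0.31 ± 0.17 for Tomm70a, -0.14 ± 0.13 for Tomm40, -0.21 ± 0.15 for Tomm7, 0.20 ± 0.21 for Tomm20 and 0.23 ± 0.31 for Tomm34.

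The alpha-tocopherol arrays also differed from the old control arrays in control signals. The mean log2 signal of 9 bacterial hybridization control probe sets was 13.32 to 13.78 with alpha-tocopherol and 12.55 to 12.92 in old controls, a difference of 0.85 (exact permutation p = 0.0079, two-sided and the smallest possible with 5 against 5 arrays; 0.016 after Benjamini-Hochberg over 8 tests). The signal of 3 probe sets for 18S RNA differed by 1.66 (exact permutation p = 0.0079, adjusted 0.016). With the signal of the hybridization controls added to the fit, 3 of the 23 calls were kept (Mrpl16, Mrpl18 and Mrpl27), all 23 genes kept their sign, their differences were a median of 1.04 times the original (0.431 to 2.31) and their SEs 1.75 times. With the 18S signal added instead, 3 calls were kept (Mrpl18, Mrps22 and Mrps34), all 23 genes kept their sign, and the differences were a median of 0.896 times and the SEs 1.58 times the original. The median of the 75 genes was -0.24 and -0.17 in these fits.

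Of the 23 calls, 15 held without each of the 20 arrays in turn, and without old controls 1 and 4 there were 14 calls, all among the 23. With alpha-tocopherol 6 of 24 tested cytosolic ribosome genes rose and 2 of 24 fell (median 0.18). Of 71 tested respiratory chain genes 9 rose (12.7%, against 8.71% of all tested genes) and 5 fell (7.04%, against 13.7%), with a median of 0.09. Cardiomyocyte markers summed to 546000 to 653000 and 3 of 6 rose, against 8.71% of all tested genes. Of endothelial markers 2 of 6 fell, of fibroblast markers 4 of 6 and of myeloid markers 3 of 6 (medians -0.32, -0.70 and -0.48). Of all tested genes 13.7% fell. Markers with the sign opposite to their list's median were Ryr2 (-0.27), Tek (0.06), Col1a1 (0.06), Dcn (0.14) and Cd14 (0.13). Liver markers summed to 630 to 1100 with alpha-tocopherol and 2730 to 18900 in old controls, and skeletal muscle markers to 8530 to 11100 and 5770 to 6480. The part of these cell type markers in the differences was not tested.

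In hearts of mice given both tocopherols, 15 of the 75 genes fell (20%) and 0 rose by their brightest probe sets. Of all tested genes 4.20% fell and 2.63% rose. At an unadjusted p below 0.05, 24 were lower (32%, against 13.1% of all tested genes) and 1 higher (1.33%, against 10.1%). Differences were below 0 for 55 genes and above 0 for 20, the median was -0.10 with quartiles of -0.36 and 0.02, and the median of all tested genes was -0.02. The genes that fell were Mrpl2, Mrpl12, Mrpl18, Mrpl20, Mrpl27, Mrpl28, Mrpl34, Mrpl36, Mrpl39, Mrpl46 and Mrpl52 of the large subunit (11 of 38, 28.9%). In the small subunit Mrps28 fell (1 of 21, 4.76%), a share near the 4.20% of all tested genes. The channels Timm22 and Timm23 (2 of 11, 18.2%) and the pore Tomm40 (1 of 5) also fell.

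**Figure D3:**
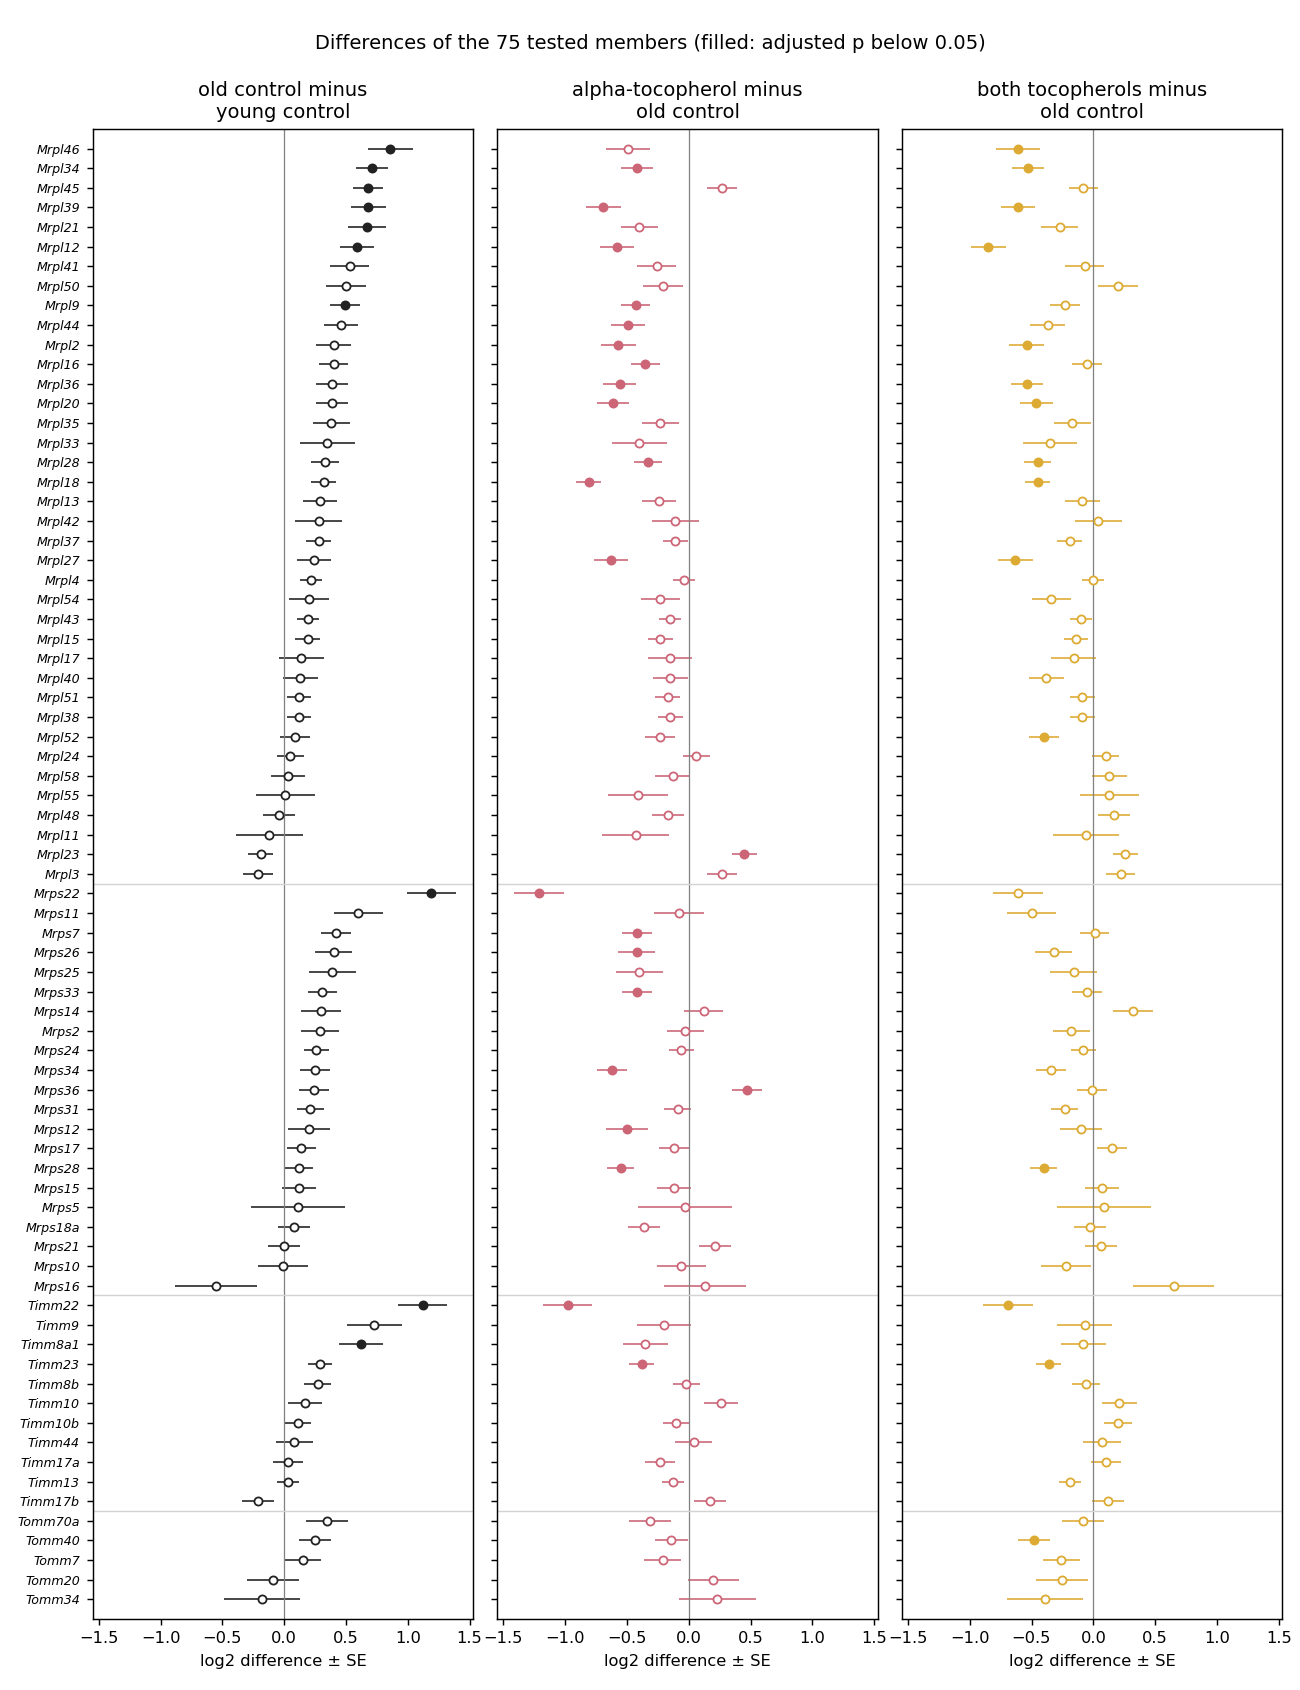
Differences of the 75 tested genes (log2 units, horizontal axis) ± SE in 3 comparisons, one gene per line, ordered by the age difference within the Mrpl, Mrps, Timm and Tomm families, with filled points where the limma adjusted p was below 0.05. The 10 filled points of the age panel all lie above 0, 21 of 23 in the alpha-tocopherol panel lie below 0, and all 15 in the panel of both tocopherols lie below 0.

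The stalk protein Mrpl12 had the lowest difference with both tocopherols. It read 11.15, 11.71, 12.05, 11.83 and 12.05, below every old control, and replicate 1 lay lowest. The difference was -0.85 ± 0.14 (limma adjusted p = 0.0015). Mrpl18 read 13.58, 13.63, 14.09, 13.84 and 13.79 and Mrpl27 11.05, 11.59, 11.68, 11.32 and 11.34, also below every old control. Their differences were -0.45 ± 0.10 (limma adjusted p = 0.0088) and -0.63 ± 0.14 (limma adjusted p = 0.0092). The further probe set of Mrpl18 differed by -0.53 ± 0.17 and did not pass the test (limma adjusted p = 0.062).

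Mrpl39 read 11.24, 11.56, 11.58, 11.43 and 11.62 with both tocopherols, with a difference of -0.61 ± 0.14 (limma adjusted p = 0.012). Mrpl34 read 12.47, 12.56, 12.50, 12.47 and 12.71 and differed by -0.53 ± 0.13 (limma adjusted p = 0.02). In both genes the treated hearts lay below every old control and overlapped the young controls.

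Mrpl36, a very small protein of the large subunit, read 10.93, 10.85, 11.12, 10.66 and 10.92 in old controls and 10.12, 10.47, 10.65, 10.13 and 10.42 with both tocopherols. The groups were separate by a narrow margin, with a difference of -0.54 ± 0.13 (limma adjusted p = 0.016). Mrpl28 read 13.11, 13.24, 13.25, 13 and 13.09 in old controls and 12.63, 12.61, 12.72, 12.71 and 12.77 with both tocopherols. The treated hearts lay close together below all old controls, and the difference was -0.45 ± 0.11 (limma adjusted p = 0.019). Mrpl2, which lies near the site of peptide bond formation, read 11.42, 11.37, 11.32, 11.26 and 11.38 in old controls and 10.51, 10.70, 11.12, 10.84 and 10.87 with both tocopherols. The difference was -0.54 ± 0.14 without overlap (limma adjusted p = 0.025).

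In the import system, Timm22 read 9.44, 10.23, 10.11, 10.25 and 10.48 with both tocopherols, and replicate 5 lay above the lowest old control. Its difference was -0.69 ± 0.20 (limma adjusted p = 0.042). Timm23 read 13.79, 13.87, 14.12, 14.01 and 13.85, below every old control, with a difference of -0.36 ± 0.10 (limma adjusted p = 0.029). The pore gene Tomm40 read 11.12, 11.32, 11.67, 10.96 and 11.06 in old controls and 10.75, 10.78, 10.51, 10.70 and 10.99 with both tocopherols. Replicate 5 overlapped the old controls, and the difference was -0.48 ± 0.13 (limma adjusted p = 0.03). The other falls were -0.46 for Mrpl20, -0.61 for Mrpl46, -0.40 for Mrpl52 and -0.40 for Mrps28.

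The remaining import genes did not pass the test with both tocopherols. Differences were -0.08 ± 0.18 for Timm8a1, -0.06 ± 0.11 for Timm8b, -0.07 ± 0.22 for Timm9, 0.21 ± 0.14 for Timm10, 0.20 ± 0.11 for Timm10b and -0.19 ± 0.09 for Timm13. They were 0.10 ± 0.12 for Timm17a, 0.12 ± 0.13 for Timm17b and 0.07 ± 0.15 for Timm44, and -0.08 ± 0.17 for Tomm70a, -0.26 ± 0.15 for Tomm7, -0.25 ± 0.21 for Tomm20 and -0.39 ± 0.31 for Tomm34. Mrps22, at 9.43, 9.07, 9.70, 9.24 and 9.76, lay below every old control but did not pass the test over all probe sets (difference -0.61 ± 0.20, limma adjusted p = 0.066). The highest difference was that of Mrps16, 0.65 ± 0.33 (limma adjusted p = 0.24).

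The count for both tocopherols depended on single arrays. It was 6 without replicate 1 of the group given both tocopherols, 7 without replicate 2, 7 without old control 2 and 9 without old control 5, and 5 without old controls 1 and 4 together. The calls of 6 genes (Mrpl12, Mrpl18, Mrpl27, Mrpl28, Mrpl36 and Mrpl39) held without each of the 20 arrays in turn. The hybridization control level differed from old controls by 0.28 (exact permutation p = 0.16) and the 18S level by 0.52 (exact permutation p = 0.26), and with these as covariates 7 and 9 of the 15 calls were kept. All 15 kept their sign in both fits, with differences a median of 0.964 and 0.939 times the original and SEs 1.12 and 1.06 times. Endothelial markers fell in 3 of 6 cases, fibroblast markers in 3 of 6 and myeloid markers in 1 of 6 (medians -0.45, -0.46 and -0.41). Of all tested genes 4.20% fell. Tek (0.25), Dcn (0.04) and Cd14 (0.12) had the opposite sign. Liver markers summed to 797 to 2190 against 2730 to 18900 in old controls, and skeletal muscle markers to 6660 to 10600 against 5770 to 6480. The part of these markers in the result was not tested.

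**Figure D4:**
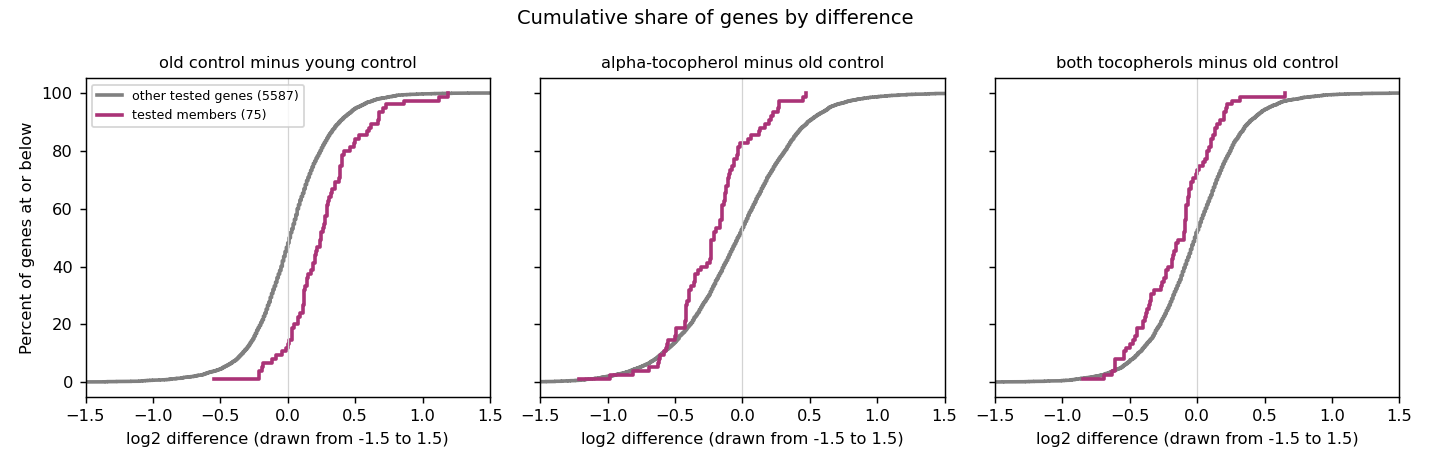
Percent of genes (vertical axis) at or below each log2 difference (horizontal axis, drawn from -1.5 to 1.5) for the 75 tested genes of the set and for all other tested genes, in 3 comparisons. The curve of the set lies to the right of the other genes with age (median 0.25 against 0.02 for all tested genes) and to the left with alpha-tocopherol (-0.21 against -0.04) and both tocopherols (-0.10 against -0.02).

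Side by side, 29 of the 75 genes were called in at least 1 comparison and 46 in none. The same share over all tested genes was not counted, so these counts have no background beside them. With alpha-tocopherol alone 13.7% of all tested genes fell and 8.71% rose. Among the genes called in all 3 comparisons with old controls, Mrpl12 differed by 0.59 with age, -0.58 with alpha-tocopherol and -0.85 with both tocopherols, and Timm22 by 1.12, -0.98 and -0.69. The highest of the 4 group means was that of the old controls in 49 of the 75 genes (65.3%), against 31.4% of all tested genes, a share to which the shared old controls contribute in each comparison. The lowest group mean was that of the young controls in 32 genes (42.7%, against 23.7% of all tested genes) and that of alpha-tocopherol in 25 (33.3%, against 33.0%).

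The supplemented hearts were also set against the young controls. The median over the 75 genes of the alpha-tocopherol mean minus the young control mean was 0.01, with 34 genes below 0, and for both tocopherols it was 0.10, with 24 genes below 0. Per heart, the median deviation from the young control means was -0.020, 0.073, -0.051, 0.126 and 0.035 with alpha-tocopherol and -0.002, 0.080, 0.259, 0.033 and 0.129 with both tocopherols. Replicate 3 of the group given both tocopherols lay within the old control range of 0.159 to 0.313, and the other supplemented hearts lay below it. Deviations of these genes from their group means went weakly together across hearts. The median pairwise correlation was 0.123 over the 75 genes and 0.000211 over all 5662 tested genes. It was 0.118 over 24 cytosolic ribosome genes and 0.283 over 71 respiratory chain genes. These are descriptions over 20 arrays whose hearts and labelling the genes share.

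Between the supplemented groups no gene of the set passed the test by its brightest probe set. In both tocopherols minus alpha-tocopherol, 0 of 75 were higher and 0 lower by limma, where 0.265% of all tested genes were higher and 0.194% lower. At an unadjusted p below 0.05, 14 were higher (18.7%, against 9.93% of all tested genes) and 5 lower (6.67%, against 6.04%), and the median was 0.06. Mrps36 came nearest, at -0.48 ± 0.12 (limma adjusted p = 0.058), and all 5 hearts given both tocopherols, at 12.48, 12.76, 12.98, 12.65 and 12.82, lay below all 5 given alpha-tocopherol. The hybridization control signal differed between these groups by -0.57 and the 18S signal by -1.14 (exact permutation p = 0.0079 for each, adjusted 0.016), and their part in these differences was not tested. Mrpl18 differed by 0.36 ± 0.10 (limma adjusted p = 0.071) and Mrps7 by 0.42 ± 0.12 (limma adjusted p = 0.098). The highest difference was that of Mrps22, 0.60 ± 0.20 (limma adjusted p = 0.14), and the lowest that of Tomm34, -0.62 ± 0.31 (limma adjusted p = 0.33).

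Among the import genes the differences between the supplemented groups ranged from -0.62 for Tomm34 to 0.33 ± 0.12 for Timm17a (limma adjusted p = 0.18). Timm10b differed by 0.30 ± 0.11 (limma adjusted p = 0.18), Timm22 by 0.29 ± 0.20, Timm8a1 by 0.27 ± 0.18, Tomm40 by -0.34 ± 0.13 (limma adjusted p = 0.20) and Tomm20 by -0.44 ± 0.21. Timm23 had nearly the same mean in both groups, with a difference of 0.01 ± 0.10.

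Some genes had further probe sets on the array. Of 17 such probe sets in 14 genes, 10 (in 8 genes) passed the filter, and their sign was that of the brighter probe set in 6 of 10 cases with age, 7 with alpha-tocopherol, 5 with both tocopherols and 8 between the supplements. The genes with opposite signs in some comparison were Mrps18a, Timm10b, Mrpl48, Mrpl50 and Tomm70a. For Mrps18a the brightest probe set differed by -0.36 with alpha-tocopherol, a further one by -0.44, and the others by 0.98 ± 0.12 and 0.91 ± 0.17. In the same order the differences with age were 0.08, 0.13, -0.42 ± 0.12 (limma adjusted p = 0.043) and -0.37 ± 0.17. With both tocopherols they were -0.03, -0.20, 0.57 ± 0.12 (limma adjusted p = 0.0064) and 0.76 ± 0.17 (limma adjusted p = 0.0092). The direction of Mrps18a is thus uncertain, and the counts of rises and falls rest on the brightest probe sets. A further probe set of Mrps25, another small-subunit protein, differed by -0.91 ± 0.16 with alpha-tocopherol (limma adjusted p = 0.0005) and by 0.86 ± 0.16 between the supplements (limma adjusted p = 0.031). A further probe set of Mrpl45 rose with age by 0.59 ± 0.11 (limma adjusted p = 0.0025) and was lower with both tocopherols than with alpha-tocopherol (-0.52 ± 0.11, limma adjusted p = 0.042).

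Other genes of mitochondrial translation were read from lists outside the naming rule. A list of ribosomal proteins under other symbols had 3 of 6 genes on the array. Its only age call was Slirp (0.58 ± 0.13), which is known as an RNA-binding partner of Lrpprc and not as a ribosomal protein, while the ribosomal proteins Dap3 and Ptcd3 differed by 0.37 ± 0.13 and 0.32 ± 0.12 and did not pass. With alpha-tocopherol all 3 fell (against 13.7% of all tested genes), Dap3 by 0.41, Ptcd3 by 0.47 and Slirp by 0.39 on the log2 scale. With both tocopherols 0 passed. Among 10 tested translation factors 3 rose with age (30.0%, against 3.00% of all tested genes), with a list median of 0.28. They were the elongation factors Tufm (0.49 ± 0.12) and Gfm1 (0.54 ± 0.12) and the initiation factor Mtif2 (0.63 ± 0.14). With alpha-tocopherol Gfm1 (-0.39), Mtif2 (-0.48) and Mterf3 (-0.72), which acts in ribosome assembly, fell and the assembly GTPase Eral1 rose (0.50), and with both tocopherols Mtif2 fell (-0.48). Of 6 mitochondrial tRNA synthetases, 0 passed with age or with both tocopherols, and Rars2 (-0.78) and Tars2 (-0.58) fell with alpha-tocopherol (33.3%, against 13.7% of all tested genes).

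Partners of the import machinery numbered 24 tested genes. With age 5 rose (20.8%, against 3.00% of all tested genes) and 0 fell (against 2.37%). Those that rose were the chaperonin Hspe1 (0.47 ± 0.11), the processing peptidase subunit Pmpcb (0.53 ± 0.13), the outer membrane protein Mtx2 (0.63 ± 0.15) and the porins Vdac2 (0.70 ± 0.18) and Vdac3 (0.51 ± 0.13). With alpha-tocopherol 8 fell (33.3%, against 13.7% of all tested genes) and 3 rose (12.5%, against 8.71%). Among them were Vdac2 (-1.23 ± 0.18), Pmpcb (-0.69 ± 0.13), Mtx2 (-0.69 ± 0.15), Hspe1 (-0.54 ± 0.11), and, rising, the cristae protein Immt (1.06 ± 0.15) and the cytosolic chaperone Hsp90aa1 (1.17 ± 0.26). With both tocopherols 4 fell (16.7%, against 4.20% of all tested genes) and 2 rose (8.33%, against 2.63%). Vdac2 (-0.74), Mtx2 (-0.59), Hspe1 (-0.45) and the import motor chaperone Hspa9 (-0.31) fell, and Immt (0.51) and Hspa8 (0.40) rose. The list medians were 0.16, -0.19 and -0.10.

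Mitochondrial proteolysis and transcription were covered by further lists. Of 8 tested proteases and prohibitins, 0 passed with age or with both tocopherols, while Afg3l1 (0.34) and Htra2 (0.52) rose with alpha-tocopherol (25%, against 8.71% of all tested genes). Of 11 tested transcription genes 0 passed with age (median 0.23) or with both tocopherols (median -0.23). With alpha-tocopherol 2 fell (18.2%, against 13.7% of all tested genes). They were the single-stranded DNA-binding protein Ssbp1 (-0.71 ± 0.15) and Gabpa (-1.17 ± 0.18), the DNA-binding subunit of the ETS factor GABP. Gabpb1, which codes for another GABP subunit, differed by -0.23 ± 0.20 and did not pass the test. Binding of GABP was not measured, and its part in the differences of the set was not tested.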

How the data were processed

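For each array the deposited values are intensity on a linear scale, for 12488 probe sets, and the trimmed mean computed from them was 1501 to 1501.1 on all 20 arrays. The software and scaling the authors used are not given in the sources used here. Per the labels' protocols, polyadenylated RNA from frozen tissue was labelled and hybridised. From the deposited intensity, log2(intensity + 58) was taken, 58 being about the 10th percentile over the whole table (57.6). Probe sets for controls (66) were removed, then the 40% with the lowest means, which left 7453. Of 12422 probe sets that are not controls, 10833 had 1 symbol, 396 several and 1193 none, and genes were represented by their brightest probe set (5662 tested genes). The 4 group means were estimated in a single limma fit (version 3.58.1, R 4.3.3) over all arrays, with lmFit, then eBayes using a variance trend and robust estimation, at 16 residual degrees of freedom.

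The set, the gene lists and the tests were chosen with earlier results of these data known. Named are all called genes, all Timm and Tomm genes, the highest and lowest difference per comparison, and called genes of the lists, up to 6 each; every array is given for up to 8 genes per comparison with the smallest adjusted p, and also for some genes chosen after their values were seen (Mrpl23, Mrps36, Timm23, Tomm40, Mrpl12 and Mrpl45 with alpha-tocopherol, and Timm22 and Mrps22 with both tocopherols). Replicate numbers did not pair the samples. No protein sequence was used here. Alternatives were other pseudocounts, filters, scalings, weights, covariates, a replicate block and omitted arrays.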

Additional observations from a re-analysis of the deposited data

Results flagged for a closer look

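In groups of 5 hearts, the 42 named genes gave 168 gene and group pairs, of which 7 (4.17%) held a heart set apart from the other 4 by a gap above Dixon's 95% critical value of 0.71 of the group's range. Chance flags about 1 in 20 groups. Levels are log2(intensity + 58). Mrpl12 stood apart in old control 4, at 12.44 against 12.61 to 12.67 in the other old controls, and in alpha-tocopherol replicate 3, at 11.59 against 12.07 to 12.24. The same alpha-tocopherol heart was lowest for Mrpl36, at 10.11 against 10.36 to 10.45. Mrpl52 was low in alpha-tocopherol replicate 1, at 12.81 against 13.19 to 13.30. Old control 5 stood high for Mrps12, at 11.68 against 11.37 to 11.45, and for Timm9, at 9.94 against 9.29 to 9.41. Mrps22 was low in young control 4, at 8.55 against 8.87 to 8.98.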

How the results depend on the processing

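For the 48 pairs of a called gene and a comparison, 35 alternatives gave 1676 values, of which 1445 kept the call, 231 lost it and 0 changed sign. With all arrays and no covariate, age calls ranged from 9 to 14 (10 in the text) except with array weights, which gave 23. Alpha-tocopherol calls (23) became 3 with the 18S level as a covariate, 3 with that of the hybridization controls, and 14 without old controls 1 and 4, which leaves 3 old controls. Calls for both tocopherols (15) became 9, 7 and 5 under the same settings. Between the supplements 0 calls became 1 with the dimmest 60% of probe sets left out. Leaving out each array in turn gave 8 to 15 age calls, 16 to 25 for alpha-tocopherol, 6 to 15 for both tocopherols and 0 to 1 between the supplements. Same-numbered hearts did not deviate together (correlations of -0.0839 to 0.101 in 30 pairs, and 2 of 20 hearts correlated best with their own number). With the replicate number as a block there were 10 age calls, 20 with alpha-tocopherol, 13 with both tocopherols and 0 between the supplements. With no filter on dim probe sets, 10 of the 48 calls were lost. No background signal or detection call was used here.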
